A study of Zea mays with 448 samples.

Results

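Private sites are segregating positions at which a single maize inbred carried an allele that set it apart from the teosinte parents of all its crosses, while no cross of another maize inbred listed the position. Of 511053 positions listed in the F1 hybrids of maize and teosinte, 13803 (2.7%) were private in this sense: 1010 in B73, 3299 in CML103, 2909 in Ki3, 2958 in Mo17, 1837 in Oh43 and 1790 in W22. Membership was decided by listing alone, not by read depth. The comparison class was formed by shared sites, which were listed in all counted crosses of the inbred and in all counted crosses of at least 2 other maize inbreds. There were 1565 shared sites in B73, 1940 in CML103, 1836 in Ki3, 2099 in Mo17, 1882 in Oh43 and 1858 in W22. A position that was not listed in a cross either did not segregate there or failed the study's limits on genomic coverage, and the counts do not tell these apart.

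The study sequenced polyA RNA of F1 hybrids between maize inbreds and inbreds of teosinte (Zea mays ssp. parviglumis), the wild progenitor of maize, and of the inbred parents. Each F1 group is a cross named by its maize and teosinte parent, untreated, in immature ear, leaf or seedling stem, and the stem samples included the shoot apical meristem. Leaf and stem came from plants at the v4 stage and single F1 ears were taken as silks appeared, whereas several teosinte ears were pooled for a parent sample. The 26 counted crosses had TIL01, TIL03, TIL09, TIL11, TIL14 or TIL25 as the teosinte parent, with 6 crosses of B73, 3 of CML103, 4 of Ki3, 3 of Mo17, 5 of Oh43 and 5 of W22, and Mo17xTIL01 was not assayed in ear. They were represented by 53 ear, 51 leaf and 50 stem libraries, labelled as biological replicates, with 814442 to 3177728 allele-assigned reads and 14325 to 109140 reads at private sites. An inbred line is a single genotype, so crosses of an inbred share its maize alleles and differ only in the teosinte parent. Of 14 tissue markers, 11 were matched and read, and 9 of these were highest in the tissue they mark. Tissues are as labelled, and 2 Oh43 libraries (Oh43xTIL01 ear replicate 2 and Oh43xTIL11 stem replicate 1) are listed with another tissue in the study's supplement. Their gene profiles correlated best with the labelled tissue in the other Oh43 crosses (r = 0.960 with ear against 0.944 with stem, and 0.934 with stem against 0.902 with ear). The same held in 148 of the 154 libraries, and the other 6, all labelled leaf, were closest to stem but had a summed level of the leaf markers pep1, ppdk1 and me3 of 898 to 1591 CPM, where no ear or stem library passed 293 CPM. Without the 2 Oh43 libraries no named gene changed its call.

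In an F1 hybrid both parental alleles of a gene sit in the same nucleus and meet the same transcription factors. A ratio of the alleles that departs from 1 to 1 is therefore read as a difference in cis, in the regulatory sequence linked to the allele, rather than in trans. Maize inbreds were drawn from a domesticated population that still holds much diversity, and an allele found in a single inbred can mark a haplotype of its own. A site shared by several inbreds marks an allele that is common among maize lines and differs from teosinte.

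Private sites were spread thinly over genes. They fell in 793 genes in B73, 2219 in CML103, 1986 in Ki3, 1968 in Mo17, 1301 in Oh43 and 1225 in W22, and 71.5% to 82.2% of these genes held a single private site. In genes with more, neighbouring sites can be read by the same RNA fragment, so that their counts are not independent. Single-base differences made up 89.9% of the private sites of B73 and 93.0% to 94.8% of those of the other inbreds. At every private site of B73 the maize allele was the reference base, because B73 is the reference genome, and at every private site of the other inbreds the teosinte allele was the reference base. All crosses of an inbred carried the same teosinte allele at 99.5% or more of its private sites. Transitions made up 66.5% to 68.4% of the single-base private sites. Changes from C or G in teosinte to A or T in maize made up 53.1% to 55.5% of them and the opposite changes 29.5% to 30.8%, against 49.6% to 53.8% and 30.2% to 34.5% at shared sites. These shares describe the alleles and were not tested.

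The private alleles of the genes described further on are given here, as the teosinte base, the position in the B73 transcript as the study's pipeline numbers it, and the maize base. All the named positions lie in annotated transcripts of B73, and whether they are coding or untranslated was not determined here. Ki3 differed in GRMZM2G474798 (chromosome 1, positions 289577316 to 289597476 of the AGPv2 assembly) at 18 private sites, among them T7270A, A6682G, T6412G, T1339C and C1179T. W22 differed in GRMZM2G039671 (chromosome 10, 72807430 to 72815482) at 11 private sites, among them A5869G, G5539C, G3549A and T162G. Single private sites carried the differences in GRMZM5G815009 of Oh43 (G566A, chromosome 3, 187223203), GRMZM2G011355 of Oh43 (C1592G, chromosome 10, 13634766), GRMZM2G082271 of Ki3 (G3551T, chromosome 10, 18125450), GRMZM2G310795 of Ki3 (G1109C, chromosome 8, 144867771), GRMZM2G095408 of W22 (G344A, chromosome 6, 156055574) and GRMZM2G002786 of W22 (T1046G, chromosome 8, 175400966). In B73, GRMZM2G018950 (chromosome 7, 148181317) and GRMZM2G401934 (chromosome 3, 138779408) were told apart by an inserted base, listed as C in teosinte and TC in maize in the former and as A and CA in the latter.

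The libraries labelled B73xTIL01 bear on every B73 result and were examined at private sites before the comparisons. In 3 of the 6 libraries the maize allele took more than 55% of all reads, namely 56.9% in ear replicate 1, 80.7% in leaf replicate 1 and 80.1% in stem replicate 2, whereas the other 3 had 50.5%, 50.7% and 50.4%. In ear replicate 1 the alleles private to B73 took only 20.02% of the reads (95% Clopper-Pearson interval 19.5% to 20.6%), against 46.2% in ear replicate 2. Alleles that B73 shared only with CML103, Ki3, Mo17 or W22 took 20.3%, 21.1%, 23.8% and 18.99% in that library, but alleles shared only with Oh43 took 55.7%. At sites where all maize inbreds but Oh43 shared the allele, the maize allele took 24.5%, and where another inbred was the exception it took 53.0% to 60.1%. The library labelled B73xTIL01 ear replicate 1 thus carried few reads of alleles that Oh43 lacks, which goes against its label. Private sites took 51.8% and 53.9% in the raised leaf and stem libraries, and there the teosinte allele was nearly missing at sites listed in B73xTIL01 alone (96.2% and 95.6% maize reads), while sites listed with B73xTIL25 alone had 59.5% and 58.4%. In the other 148 libraries the private alleles took 41.2% to 53.2% of the reads (median 48.1%). The shares, the pairs of inbreds and the calls of B73 are therefore also given without the 3 raised libraries, while the counts of single sites and the shares by chromosome include them.

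**Figure D1:**
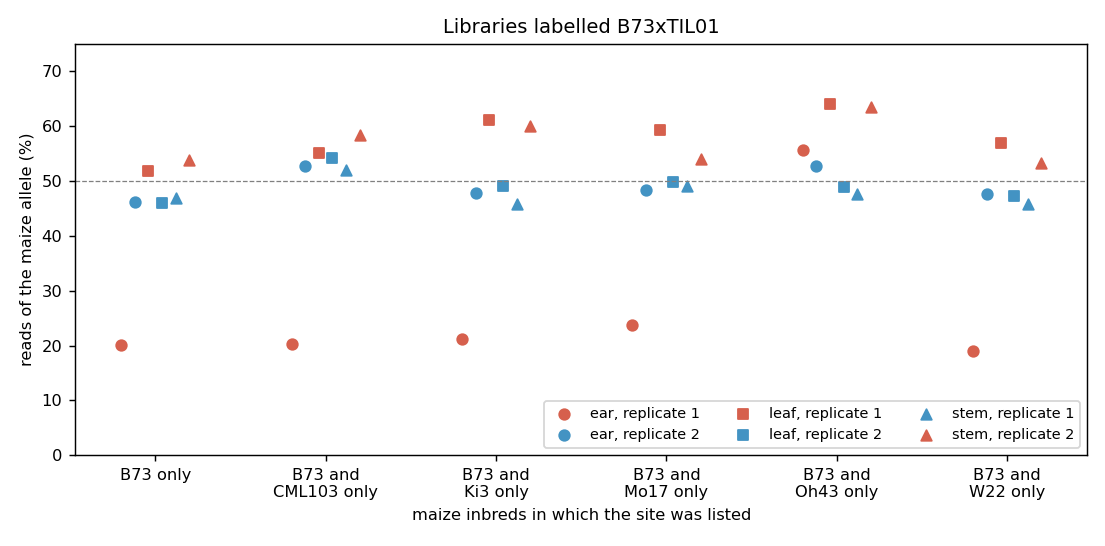
Percentage of reads of the maize allele (vertical axis) in the 6 libraries labelled B73xTIL01, at sites listed in B73 crosses only and at sites B73 shared with a single other inbred (horizontal axis). Each symbol is 1 library, and ear replicate 1 sits at 18.99% to 23.8% in every class except sites shared with Oh43, where it is at 55.7%.

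Whether a private maize allele was read as often as a shared one was asked within each cross, so that depth and the overall balance of a library cancel. The private allele took a smaller share than the shared allele in most inbreds, and the gap was wide in B73 only. In B73 ear, private alleles took 44.6% ± 5.78 of the reads and shared alleles 49.4% ± 1.44 (SD, n = 6 crosses), with crosses from 32.9% to 47.6% (median 46.8%) at private sites. In B73 leaf the private share was 45.8% ± 2.26 against 50.7% ± 1.82, and in B73 stem 47.5% ± 1.37 against 50.6% ± 1.404 (n = 6 crosses each). The private share was below the shared one in all 6 B73 crosses in each tissue. Without the 3 raised libraries the private share of B73 was 46.8%, 45.3% and 47.0% in the 3 tissues, with 50.0% at shared sites in each, and was still lower in 6 of 6 crosses.

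CML103 was lower at private sites as well, in all 3 crosses of each tissue. In ear, leaf and stem its private alleles took 47.9% ± 0.980, 47.1% ± 1.496 and 47.9% ± 0.634 of the reads, against 49.2% ± 0.151, 49.2% ± 0.451 and 48.9% ± 0.596 at shared sites (SD, n = 3 crosses). W22 was low in both classes, with 46.4% ± 1.43, 46.7% ± 1.33 and 45.6% ± 1.00 at private sites and 47.5% ± 0.612, 46.9% ± 1.02 and 47.0% ± 0.544 at shared sites (n = 5 crosses). The W22 crosses lay below the shared sites in 5 of 5 in ear and stem and in 3 of 5 in leaf. 

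Ki3, Mo17 and Oh43 had private alleles near 50%. Ki3 had 49.4% ± 0.321, 49.3% ± 1.78 and 49.2% ± 0.262 in ear, leaf and stem (n = 4 crosses). Mo17 had 50.6% ± 0.907 in ear (n = 2 crosses), 49.8% ± 0.899 in leaf and 50.2% ± 0.498 in stem (n = 3 crosses). Oh43 had 48.9% ± 1.23, 50.5% ± 0.822 and 50.1% ± 0.967 (n = 5 crosses). Their shared sites had 49.5% to 50.2%, and in these inbreds the private and the shared class differed by less than 1 percentage point in every tissue.

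**Figure D2:**
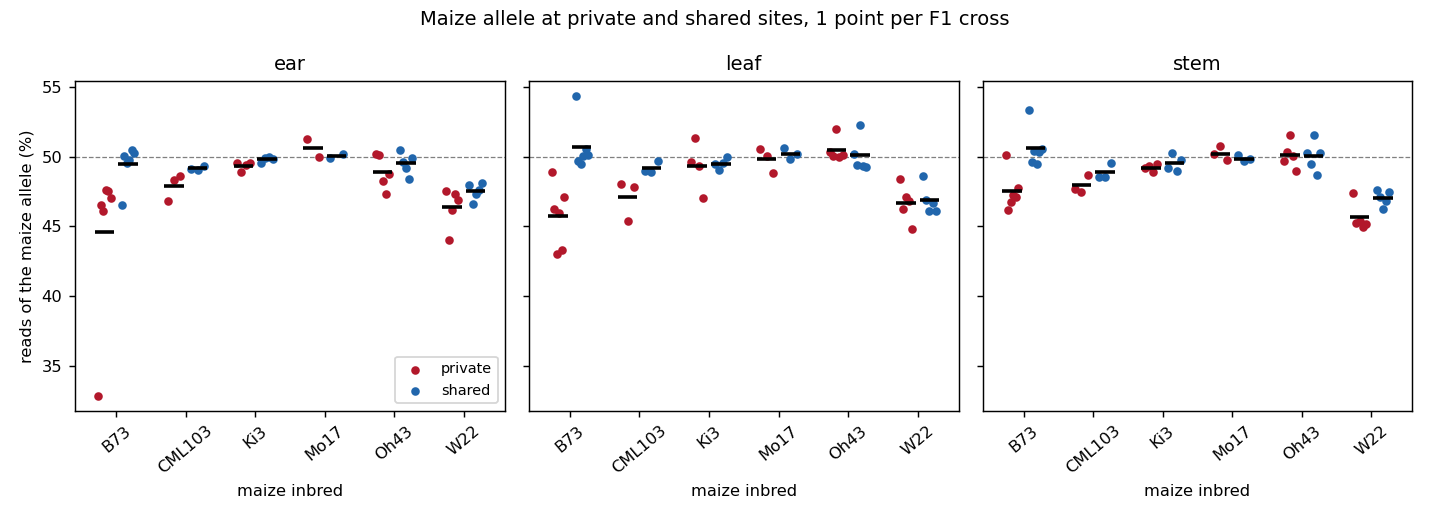
Percentage of reads of the maize allele (vertical axis) at private and at shared sites in ear, leaf and stem for each maize inbred (horizontal axis). Each point is 1 F1 cross and black lines are means over crosses, B73 private sites lie below its shared sites in all 6 crosses of each tissue, and the point at 32.9% in ear is B73xTIL01.

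Over the 6 inbreds the difference was not established. The log2 ratio of maize to teosinte reads was lower at private than at shared sites by a mean of -0.08 ± 0.11, -0.07 ± 0.12 and -0.05 ± 0.07 (SD) in ear, leaf and stem, with 5, 5 and 4 of 6 inbreds in that direction. A two-sided exact sign-flip permutation test over the 6 inbreds gave p = 0.0938, 0.156 and 0.188, each 0.188 after Benjamini-Hochberg adjustment over the 3 tissues, where 0.0313 is the smallest p this design allows. Without B73 the means were -0.03 in each tissue, so B73 supplied more than any other inbred. When every gene was counted once, through the median gene, the differences were smaller but lay in the same direction in 6 of 6 inbreds in leaf (-0.06) and stem (-0.02), with an adjusted exact p of 0.0469. No pair of tissues differed in the gap between private and shared sites. Ear minus leaf was 0.00 ± 0.05, ear minus stem -0.03 ± 0.04 and leaf minus stem -0.02 ± 0.07 on the log2 scale (SD, n = 6 inbreds), with adjusted exact permutation p of 0.875, 0.656 and 0.75.

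Differences between inbreds beyond the spread over teosinte parents all involved B73. Of 45 pairs of inbreds and tissues, 7 passed an exact permutation test of crosses at an adjusted p below 0.05, and all 7 set B73 below another inbred. Crosses of an inbred share its maize genotype and its sites, so this p measures the spread over teosinte parents only. Crosses were not paired by teosinte parent. The maize allele was the reference base at all private and shared sites of B73 but at no private site of the other inbreds. In pairs with B73 the inbred and the reference status of its alleles thus coincide, and their parts were not tested. In leaf, the private minus shared log2 ratio of B73 lay below that of Oh43 by -0.31, of Ki3 by -0.28 and of W22 by -0.27 (adjusted exact permutation p = 0.0325, 0.0417 and 0.0325). In stem the differences were -0.18 to Oh43, -0.16 to Ki3 and -0.10 to W22 (adjusted exact permutation p = 0.0325, 0.0417 and 0.0417), and in ear -0.25 to Oh43 (0.0417). Among the other inbreds no pair passed, and 4 of the 45 pairs have too few crosses to reach 0.05 at all. The call depended on how genes were weighted. Without the 3 raised libraries 12 pairs passed and without chromosome 10 11 pairs passed, but with every gene counted once none did (lowest adjusted p 0.714), and at sites read in the parents none did (0.0714). Without the cross B73xTIL01 none did either (0.0510), where 5 crosses against 4 or 5 allow no exact p below 0.00794 and 17 pairs, rather than 15, had an unadjusted exact permutation p below 0.05. The differences of B73 then were -0.30, -0.27 and -0.27 to Oh43, Ki3 and W22 in leaf, -0.18, -0.16 and -0.10 in stem and -0.14 to Oh43 in ear, so the lost calls say nothing about stability in leaf and stem, whereas the ear difference shrank.

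The spread over single sites was wide, and most sites were near balance. Among private sites with at least 50 reads over the F1s, 69.2% of those in W22, 71.2% in CML103, 73.8% in B73, 76.6% in Ki3, 76.9% in Mo17 and 78.7% in Oh43 had a maize share between 40% and 60%. At shared sites the range was 77.4% to 81.2%. The median private site was at 48.8% in B73, 49.1% in W22 and 49.0% to 50.1% in the other inbreds. The middle of the distribution thus lay closer to 50% in B73 and W22 than their mean shares.

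B73 and W22 also held more sites than the other inbreds at which the maize allele was almost absent, defined as at most 2% of at least 50 reads, limits chosen with the values known. There were 112 such private sites of 1290 in W22 (8.68%) and 44 of 763 in B73 (5.77%). In Ki3 there were 36 of 1999 (1.80%), in CML103 24 of 2122 (1.13%), in Oh43 15 of 1418 (1.06%) and in Mo17 13 of 1924 (0.676%). The teosinte allele was almost absent at only 2 to 7 private sites in each inbred. At shared sites the maize allele was almost absent at 54 of 1424 sites in W22 (3.79%) and at 0.333% to 0.823% in the other inbreds. No maize read at all was found in the F1s at 91 of the 112 sites of W22 and at 30 of the 44 of B73. The maize parent itself had no read at 103 of the 112 sites of W22, 37 of the 44 of B73, 33 of the 36 of Ki3, 17 of the 24 of CML103 and 12 each of those of Mo17 and Oh43. Of the private sites that were deep but not of this kind, the maize parent had no read at 0.153% to 1.76%. Indels made up 17 of the 44 sites of B73 but 2 of the 112 of W22. Whether these alleles were not transcribed, lost reads in alignment or were assigned wrongly from genomic reads was not tested.

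Without the sites at which either allele was almost absent, the private share rose to 46.5% ± 5.99, 49.0% ± 1.86 and 49.6% ± 1.46 in B73 ear, leaf and stem, and to 49.7% ± 1.54, 49.0% ± 1.36 and 49.2% ± 0.928 in W22 (SD over 6 and 5 crosses). In the other inbreds it moved by less than 0.5 percentage points. The sites removed here were picked by their counts, so these values are a description.

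In W22 the absent alleles were concentrated on chromosome 10. Of 122 deep private sites there, 77 (63.1%) had at most 2% maize reads, followed by 17 of 139 on chromosome 6 (12.2%) and 11 of 146 on chromosome 3 (7.53%). The private alleles of W22 on chromosome 10 took 25.7%, 21.8%, 22.2%, 25.4% and 22.1% of the reads in ear of the crosses with TIL01, TIL03, TIL11, TIL14 and TIL25. In leaf of the same crosses they took 27.9%, 26.2%, 22.8%, 26.7% and 21.0%, and in stem 26.6%, 19.8%, 23.4%, 18.97% and 14.3%. On the other chromosomes together the W22 crosses had 46.0% to 49.6% in every tissue, so the 2 groups of values did not overlap. Shared sites of W22 were low on chromosome 10 as well, with 31.3% ± 0.956, 37.3% ± 1.85 and 32.01% ± 1.71 maize reads in the 3 tissues (SD, n = 5 crosses) and 19 of 60 deep sites absent (31.7%), and 15 of 135 were absent on chromosome 6 (11.1%) and 3 of 123 on chromosome 3 (2.44%). The low stretch was thus not particular to private sites. The absent sites lay in stretches. In windows of 10 Mb, 9 of 10 deep private sites between 10 and 20 Mb of chromosome 10, 8 of 8 between 20 and 30 Mb, 18 of 18 between 70 and 80 Mb, 6 of 7 between 110 and 120 Mb and 15 of 15 between 120 and 130 Mb had an absent maize allele. Between 0 and 10 Mb 3 of 12, between 130 and 140 Mb 3 of 18 and between 140 and 150 Mb 5 of 20 were absent. No window of another inbred reached 80%, of 70 to 140 windows with at least 5 deep private sites in each.

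**Figure D3:**
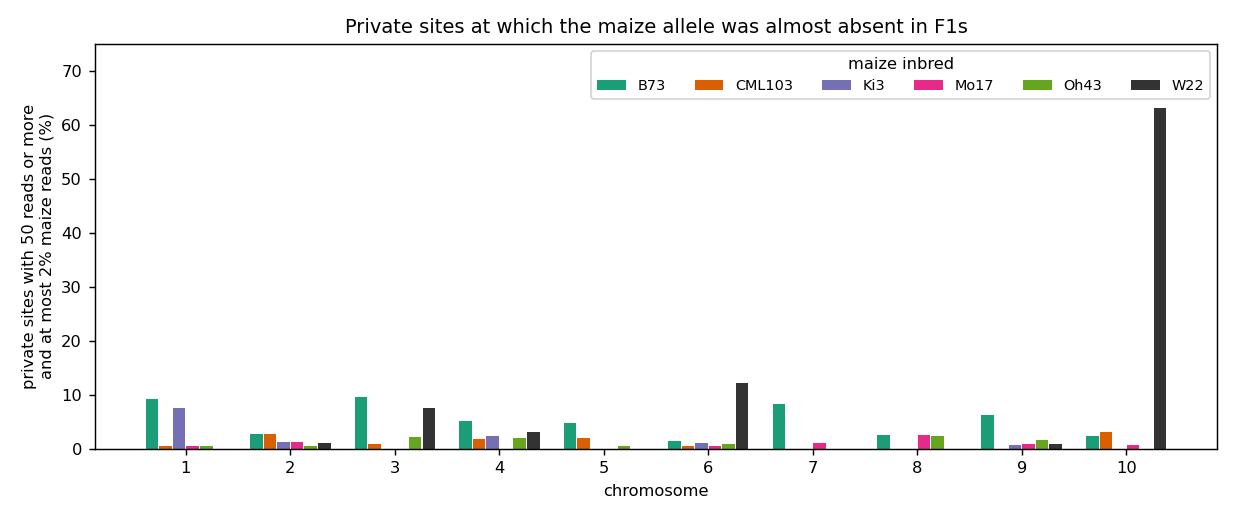
Percentage of private sites with at least 50 F1 reads at which the maize allele took at most 2% of them (vertical axis), by chromosome (horizontal axis) and maize inbred (colour). The bar of W22 on chromosome 10 stands at 63.1%, and the next highest bar, W22 on chromosome 6, at 12.2%. Shared sites of W22, which are not drawn, stand at 31.7% on chromosome 10 and 11.1% on chromosome 6.

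B73 showed no such block. Its absent alleles were found on all 10 chromosomes, with the highest share on chromosome 3 (9 of 93, 9.68%) and chromosome 1 (12 of 129, 9.30%). Among chromosomes, its private share was lowest on chromosome 7, at 39.4%, 35.8% and 40.4% in ear, leaf and stem. In Ki3, 25 of the 36 absent sites were on chromosome 1, where GRMZM2G474798 alone holds 18 private sites.

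Gene by gene, the alleles were compared with edgeR's quasi-likelihood test, with the cross as a block and p-values adjusted over all features of an inbred and tissue. Genes with at least 10 reads per cross on average entered. In ear 288 of 6025 private features were called at an adjusted p below 0.05 (4.78%), where 3.67% of all features were called, and 230 of them were lower for the maize allele (2.73% of all features were lower) and 58 higher (0.944%). In leaf 261 of 5577 were called (4.68%, background 3.5%), 203 lower (background 2.56%) and 58 higher (0.937%). In stem 345 of 5898 were called (5.85%, background 4.7%), 241 lower (3.25%) and 104 higher (1.46%). Shared sites were called in 4.01%, 3.90% and 4.88% of features. With all libraries, the excess at private sites in ear and leaf was thus in lower calls (3.82% and 3.64% of private features). Higher calls there were near the background (0.963% and 1.04%). In B73 ear, however, 14 of 546 private features were higher with all libraries and 40 of 543 without the 3 raised libraries. The share of all features called in that fit is not given, so it is not known whether ear higher calls stay near the background there. In stem lower calls (4.09%) and higher calls (1.76%) were both above the background. The excess of higher calls in stem came mainly from B73 (6.8% of its private features, background 4.58%), and fewer were higher there without the raised libraries (28 of 490). In the other inbreds higher calls in stem were near the background of the inbred. These differences were not tested.

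Calls were most frequent in W22 and B73. In W22, 104 of 776 private features were called in ear (13.4%, where 11% of all W22 features were called), 112 of 726 in leaf (background 12.1%), and 128 of 781 in stem (13.5%). In B73, 82 of 546 were called in ear (background 10.4%), 67 of 472 in leaf (9.02%) and 83 of 500 in stem (10.6%). In Oh43 there were 55 of 914 (4.98%), 28 of 848 (2.83%) and 49 of 910 (4.59%), and in Ki3 47 of 1217 (3.85%), 43 of 1088 (3.4%) and 60 of 1212 (5.39%), each with its background in parentheses. In Mo17 the ear gave 0 of 1263 (0.0189%), the leaf 10 of 1180 (0.943%) and the stem 25 of 1197 (1.98%). In CML103 there were 0 of 1309 (0%), 1 of 1263 (0.062%) and 0 of 1298 (0%). Private shares of features called near these backgrounds, as in Ki3, Mo17 and CML103, are no result about private sites. The counts of 0 rest on few crosses. At an unadjusted p below 0.05 the edgeR test held 203 of 1309 private features of CML103 in ear, 187 of 1298 in stem and 137 of 1263 of Mo17 in ear. Shared sites held 112 of 904, 98 of 914 and 107 of 1014 there. Other sites held 438 of 2787, 387 of 2809 and 370 of 3004. DESeq2 called 67, 68 and 12 of these private features, and its share over all features is not given. None of these counts is a result about private sites.

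**Figure D4:**
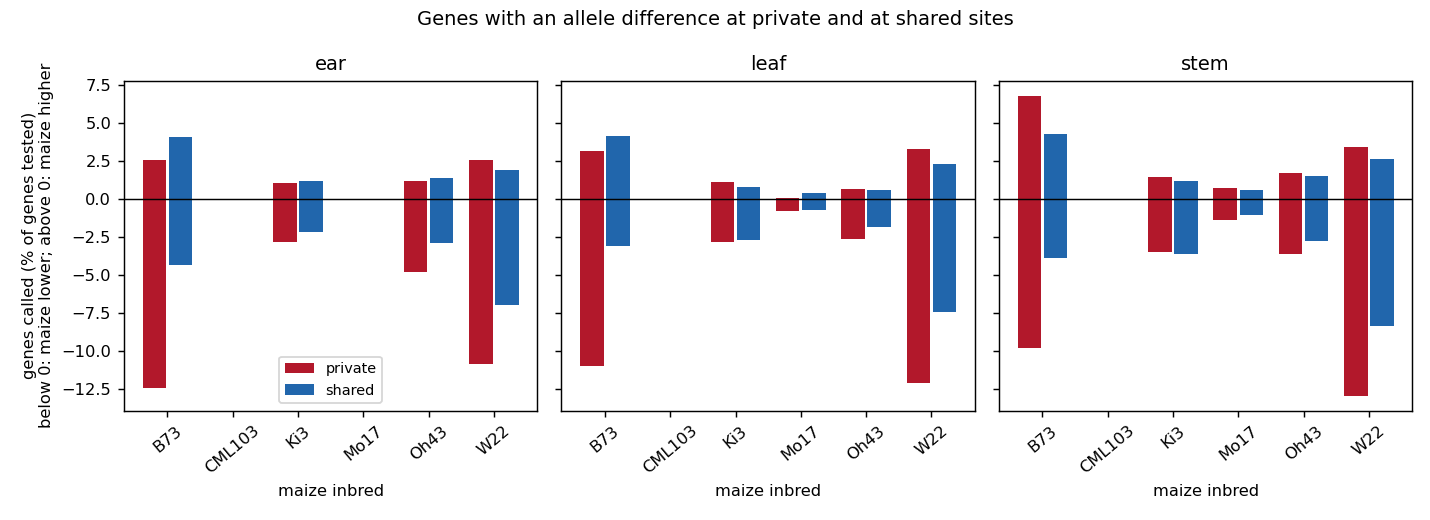
Genes called by edgeR at private and at shared sites as a percentage of genes tested (vertical axis, lower maize allele drawn below 0 and higher above) for each maize inbred (horizontal axis) in ear, leaf and stem. The longest bars are lower calls at private sites of B73 and W22, and CML103 has at most 1 call in a tissue.

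Lower calls outnumbered higher ones in every inbred and tissue with more than 1 call. In B73, 68, 52 and 49 private features were lower in ear, leaf and stem (7.27%, 5.68% and 6.05% of all B73 features were lower) and 14, 15 and 34 were higher (backgrounds 3.09%, 3.34% and 4.58%). Without the 3 raised libraries 70, 55 and 47 were lower and 40, 14 and 28 higher, so that lower calls still outnumbered higher ones, in ear by less. The share of all B73 features called in each direction in that fit is not given. In W22, 84, 88 and 101 were lower (backgrounds 8.82%, 9.16% and 10.3%) and 20, 24 and 27 higher (2.22%, 2.9% and 3.27%), and among the lower ones 51, 49 and 45 had no maize read in any cross. In Ki3, 34, 31 and 42 were lower (backgrounds 2.68%, 2.52% and 3.7%) and 13, 12 and 18 higher (1.17%, 0.882% and 1.68%). In Oh43, 44, 22 and 33 were lower (3.63%, 2.11% and 3.09%) and 11, 6 and 16 higher (1.35%, 0.725% and 1.5%), and in Mo17 9 leaf and 16 stem features were lower (0.763% and 1.34%) and 1 and 9 higher (0.181% and 0.639%). The 1 call of CML103, in leaf, was lower. Of the tested W22 genes on chromosome 10, 38 of 66, 41 of 64 and 39 of 64 were lower in ear, leaf and stem, against 46 of 710, 47 of 662 and 62 of 717 elsewhere. The share of all W22 features called lower on chromosome 10 is not given. Shared sites of W22 were low there as well, so these counts are no result about private sites. Refitted without chromosome 10, W22 had 53 of 710, 59 of 662 and 80 of 717 private features called, of which 40, 43 and 60 were lower. The share of all W22 features called in that refit is not given.

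Calls recurred over tissues. Of the genes tested in all 3 tissues, 70 of 683 private features were called in all 3 in W22 (10.2%, where 7.63% of all W22 features were) and 43 of 447 in B73 (9.62%, background 4.98%). In Ki3 26 of 985 were (2.64%, background 1.96%) and in Oh43 18 of 802 (2.24%, background 1.66%), which is near the background. Lower in all 3 were 61, 37, 19 and 15 of these in W22, B73, Ki3 and Oh43 (backgrounds 6.82%, 3.93%, 1.58% and 1.4%) and higher 9, 6, 7 and 3 (0.812%, 1.05%, 0.379% and 0.258%). None was in CML103 and Mo17, where the backgrounds were 0% and 0.0216%. Without the 3 raised libraries 44 of 431 were called in all 3 in B73, where 5.23% of all features were. The tissues of a cross share its alleles and are not independent tests of them. A single gene was called in opposite directions, GRMZM2G130230 of W22, named after its values were seen, with 1405 maize and 787 teosinte reads in leaf (log2 ratio 0.85 ± 0.13 SE, edgeR adjusted p = 0.00249), 1291 and 1777 in stem (-0.49 ± 0.13, edgeR adjusted p = 0.0483) and 166 and 211 in ear (-0.30 ± 0.24, edgeR adjusted p = 0.514).

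Of the named genes with a low maize allele, GRMZM2G018950 of B73 had the lowest adjusted p in each tissue. Its maize reads numbered 23, 20 and 26 and its teosinte reads 1902, 772 and 1480 in ear, leaf and stem. The maize share in the 6 crosses ran from 0.794% to 2.26% (median 1.11%) in ear, from 1.34% to 3.92% (2.85%) in leaf and from 0.769% to 2.39% (1.62%) in stem. All 6 crosses were low in every tissue. Log2 ratios of -6.30 ± 0.22, -5.21 ± 0.23 and -5.81 ± 0.17 (SE) were fitted (edgeR adjusted p = 3.05e-10, 3.12e-09 and 1.4e-09). The B73 parent libraries gave 2 reads at this site, which is an indel.

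The Oh43 gene GRMZM5G815009 behaved alike at its G566A site. In ear the crosses with TIL01, TIL03, TIL09, TIL11 and TIL25 gave 2, 2, 2, 1 and 1 maize reads against 152, 106, 142, 118 and 215 teosinte reads. Over ear, leaf and stem the log2 ratios were -6.40 ± 0.24, -5.36 ± 0.29 and -5.21 ± 0.35 (edgeR adjusted p = 1.1e-06, 8.99e-05 and 0.000130). GRMZM2G119345 of Oh43, with an A897G site, had log2 ratios of -2.09 ± 0.26, -1.97 ± 0.42 and -2.51 ± 0.50 (edgeR adjusted p = 0.00270, 0.0489 and 0.0282). In leaf its cross with TIL03 was balanced, with 18 maize and 17 teosinte reads, while the other 4 crosses had 10.2% to 23.0% maize reads, and the leaf call was lost without replicate 1 (edgeR adjusted p = 0.0644) and without replicate 2 (0.139) and in 3 further alternatives, and the stem call without replicate 1 (0.114).

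GRMZM2G082271 of Ki3 had a maize allele that was low but read in every cross. Its G3551T site gave 18, 17, 27 and 15 maize reads against 75, 113, 118 and 101 teosinte reads in ear of the crosses with TIL03, TIL09, TIL11 and TIL14. Its log2 ratios in ear, leaf and stem were -2.40 ± 0.19, -3.22 ± 0.27 and -3.29 ± 0.25 (edgeR adjusted p = 0.000496, 0.00130 and 0.000530). GRMZM2G002786 of W22, which RefSeq lists with the synonym dehydrin7, gave 8, 7, 4, 3 and 11 maize reads against 84, 78, 70, 34 and 83 teosinte reads in ear. Dehydrins are proteins that plant tissues make as they dry. The ratios were -3.40 ± 0.21, -4.27 ± 0.29 and -3.79 ± 0.24 on the log2 scale (edgeR adjusted p = 8.53e-06, 3.65e-05 and 2.26e-05), and all 5 crosses were low in every tissue.

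The genes with the most private sites differed between inbreds. GRMZM2G474798 of Ki3 gave 2, 0 and 5 maize reads against 1420, 814 and 1188 teosinte reads in ear, leaf and stem over its 18 sites, and the Ki3 parent gave no read at any of them. With a floor of 3 counts for the gene over the 4 crosses, the maize allele in leaf was at least 271-fold lower. The log2 ratio was -9.13 ± 0.46 in ear and -7.76 ± 0.35 in stem (edgeR adjusted p = 7.93e-05 and 6.47e-05). GRMZM2G039671 of W22, on chromosome 10, gave 0, 0 and 1 maize reads against 811, 466 and 1093 teosinte reads over 11 sites, at least 270-fold lower in ear and at least 155-fold lower in leaf by the same floor over 5 crosses, and the W22 parent again gave no read. In stem its log2 ratio was -9.39 ± 0.40 (edgeR adjusted p = 5.35e-06).

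The other such genes did not pass the edgeR test over crosses. GRMZM2G467799 of CML103, with 15 private sites on chromosome 6, had 48.6%, 47.9% and 48.2% maize reads in ear, leaf and stem, and its log2 ratios were -0.08 ± 0.07, -0.15 ± 0.16 and -0.11 ± 0.08 (edgeR adjusted p = 0.611, 0.702 and 0.605). GRMZM2G700014 of B73, with 9 sites, had 41.6%, 45.0% and 52.2% maize reads in ear, leaf and stem (edgeR adjusted p = 0.0937, 0.170 and 0.573). Its ear value passed without the 3 raised libraries (log2 ratio -0.41, edgeR adjusted p = 0.0486), with libraries as units (0.0252), with the replicate block (0.0103) and in DESeq2 (adjusted p = 0.0372). GRMZM2G031718 of Mo17, with 10 sites, had 56.0%, 54.3% and 53.1% (edgeR adjusted p = 0.579, 0.720 and 0.842). GRMZM5G801369 of Oh43, with 8 sites, had 37.9%, 30.8% and 29.5% (edgeR adjusted p = 0.378, 0.178 and 0.0691). Its stem value passed with libraries as units (edgeR adjusted p = 0.0114), with the replicate block (0.00787), without replicate 2 (0.0419) and in DESeq2 (adjusted p = 0.0342).

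Higher private alleles were fewer. GRMZM2G401934 of B73, synonym bth1 in RefSeq, gave 206, 190 and 170 maize reads against 10, 7 and 8 teosinte reads in ear, leaf and stem. The maize share over the 6 crosses ran from 81.0% to 100% (median 96.5%) in ear, from 90.7% to 100% (99.1%) in leaf and from 91.4% to 100% (97.3%) in stem, and the log2 ratio was 4.25 ± 0.46, 4.67 ± 0.44 and 4.31 ± 0.37 (edgeR adjusted p = 1.81e-05, 4.92e-06 and 6.94e-06). GRMZM2G547542 of B73, at C2153G and G1525A, was higher by 0.74 ± 0.17, 0.73 ± 0.19 and 0.94 ± 0.12 (edgeR adjusted p = 0.0144, 0.0242 and 0.000344). Its ear call was lost without replicate 2 (edgeR adjusted p = 0.388) and with 1 site per gene (0.0615) and its leaf call without replicate 1 (0.0615), without replicate 2 (0.116) and without B73xTIL01 (0.0754).

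In Ki3, GRMZM2G577706 (T257C and C56T, chromosome 5, 191995114 and 191995315) gave 16, 44, 44 and 8 maize reads in ear of the crosses with TIL03, TIL09, TIL11 and TIL14 and a single teosinte read in all. In leaf 178 maize reads stood against 0 teosinte reads and in stem 120 against 0, at least 59.3-fold and at least 40-fold higher with the floor of 3 counts. GRMZM2G310795 of Ki3 gave 427, 81 and 225 maize reads against 96, 10 and 61 teosinte reads, with log2 ratios of 2.22 ± 0.22, 2.90 ± 0.42 and 1.98 ± 0.32 (edgeR adjusted p = 0.00120, 0.0103 and 0.0140). The leaf call was lost without replicate 2 (edgeR adjusted p = 0.0798) and the stem call without replicate 1 (0.0791).

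GRMZM2G011355 of Oh43 gave 39, 20, 33, 8 and 58 maize reads against 0, 2, 1, 1 and 1 teosinte reads in ear of the crosses with TIL01, TIL03, TIL09, TIL11 and TIL25. Ear, leaf and stem had log2 ratios of 4.76 ± 0.48, 7.06 ± 0.63 and 6.59 ± 0.39 (edgeR adjusted p = 0.000855, 0.000979 and 0.000114). GRMZM2G095408 of W22 gave 103, 54 and 146 maize reads against 3, 2 and 3 teosinte reads, with log2 ratios of 4.80 ± 0.57, 4.43 ± 0.65 and 5.36 ± 0.53 (edgeR adjusted p = 0.000407, 0.00250 and 0.000339). GRMZM2G096107 of W22 (G2606A, A2252G and G2166C, chromosome 10, 143072341 to 143072781) was higher on the chromosome where lower calls were more frequent than elsewhere. In ear its crosses with TIL01, TIL03, TIL11, TIL14 and TIL25 gave 277, 221, 161, 195 and 145 maize reads against 0, 42, 14, 2 and 27 teosinte reads. The crosses with TIL01 and TIL14 had almost no teosinte read in any tissue and the other 3 had 84.0% to 94.1% maize reads.

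**Figure D5:**
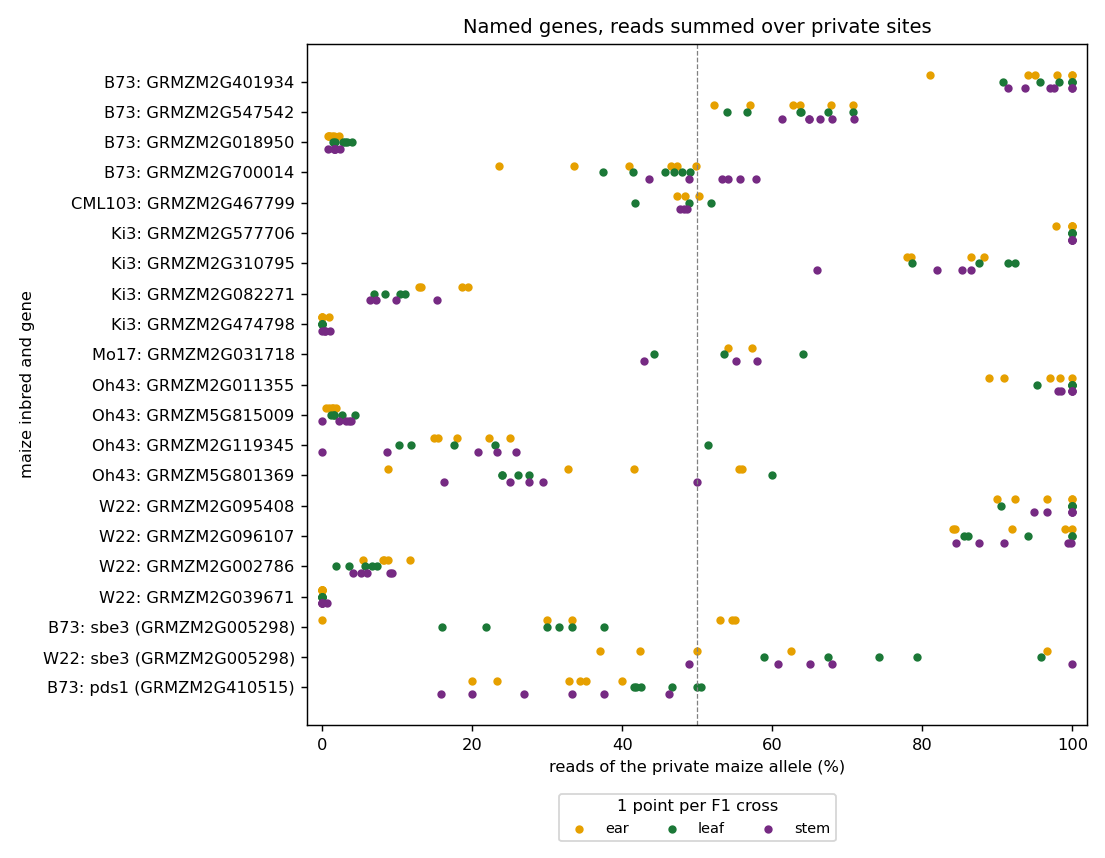
Percentage of reads of the private maize allele (horizontal axis) in each named gene and inbred (vertical axis), with 1 point per F1 cross, coloured by tissue. Points of a gene lie close together in the genes near 0% or 100%, whereas W22 sbe3 in ear spreads from 37.0% to 96.7%.

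Among the list genes that could be matched, few held private sites, and the count of calls among them was small. Matched were 21 of 27 starch and sucrose symbols, 12 of 24 carotenoid, 13 of 20 anthocyanin and 8 of 21 lignin symbols. For flowering time and clock 8 of 27 were matched, for inflorescence architecture 25 of 31 and for floral MADS 18 of 27. In the C4 and Rubisco list 9 of 13 were matched, and all 8 domestication genes were. Of 8 starch and sucrose genes with private sites, only sbe3, ae1, sbe1, du1 and pho1 had enough reads, for 20 tests over inbreds and tissues. Of these tests 1 was called higher and 1 lower, where 9.02% of all features were called in B73 leaf and 12.1% in W22 leaf. The count is thus no result about the list. Both calls were in sbe3 (GRMZM2G005298), which encodes a starch branching enzyme, the class of enzyme that adds branches to the glucan chains of starch. In B73 leaf its private allele (C2605T, chromosome 8, 141992663) gave 40 maize and 113 teosinte reads, from 16.0% to 37.5% in the 6 crosses (median 30.8%), with a log2 ratio of -1.43 ± 0.30 (edgeR adjusted p = 0.00751). In W22 leaf another private allele (T1519C, chromosome 8, 141991577) gave 33, 60, 66, 61 and 90 maize reads against 16, 42, 23, 16 and 4 teosinte reads in the crosses with TIL01, TIL03, TIL11, TIL14 and TIL25, with a log2 ratio of 1.69 ± 0.45 (edgeR adjusted p = 0.0433). In leaf all 6 B73 crosses lay below 50% and all 5 W22 crosses above. In ear B73 had 40 maize and 50 teosinte reads, with 3 of 6 crosses above 50% (log2 ratio -0.40 ± 0.42, edgeR adjusted p = 0.604), and W22 had 64 and 43 (0.55 ± 0.63, 0.656), and in stem W22 had 148 and 67 (1.20 ± 0.62, 0.275), while B73 stem was not tested. In Ki3, with 5 private sites in sbe3, leaf had 167 and 196 reads (edgeR adjusted p = 0.769). The B73 call was lost without replicate 1 (edgeR adjusted p = 0.0599) and without replicate 2 (0.105), and the W22 call without replicate 2 (0.0731).

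Of 3 carotenoid genes with private sites, only pds1 and psy2 had enough reads, for 6 tests. Among these, 2 were lower and both were in pds1 (GRMZM2G410515) of B73, which encodes phytoene desaturase, an early enzyme of carotenoid synthesis. With 10.4% of all B73 features called in ear and 10.6% in stem, 2 calls in 1 gene are no result about the list. Its private allele (C2098T, chromosome 1, 17666998) gave 78 maize and 174 teosinte reads in ear and 37 and 86 in stem. The crosses ran from 20% to 40% (median 33.6%) in ear and from 15.8% to 46.2% (30.1%) in stem, all below 50%, and from 41.5% to 50.5% (44.5%) in leaf. The log2 ratio was -1.17 ± 0.24 in ear, -1.22 ± 0.34 in stem and -0.26 ± 0.14 in leaf (edgeR adjusted p = 0.00632, 0.0398 and 0.268), and the difference between tissues was not tested. The stem call was lost without the 3 raised libraries (edgeR adjusted p = 0.0753), without B73xTIL01 (0.0988) and without replicate 1 (0.296), and the ear call without replicate 2 (0.291). The psy2 gene, for phytoene synthase, the enzyme before it, gave 321 maize and 156 teosinte reads in CML103 leaf (edgeR adjusted p = 0.253).

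No test was called in the remaining lists. Of 8 domestication genes a private site was tested in tb1 alone, the branching regulator teosinte branched1, which gave 46 maize and 27 teosinte reads in CML103 ear (edgeR adjusted p = 0.525). The inflorescence genes fea2 and fea3, named for fasciated ears, gave 64 and 106 reads in CML103 ear and 101 and 115 in Oh43 ear (edgeR adjusted p = 0.280 and 0.853). Floral MADS genes were tested 4 times, flowering time and clock genes 8 times and photosynthesis genes of the C4 and Rubisco list 4 times, with no call. The largest ratio among these was in the phytochrome gene phya2 of Mo17 leaf, with 6 maize and 40 teosinte reads (edgeR adjusted p = 0.178). Among the matched symbols, a single anthocyanin gene held private sites but had too few reads for a test, and no lignin gene held any. The median log2 ratio over all 17500 private tests was -0.02, against 0.12 in the starch list and -0.03 in the carotenoid list.

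In genes with both kinds of site, private and shared sites were read on the same transcripts. There were 23 to 82 such genes in each inbred and tissue. The median difference in log2 ratio between their private and shared sites ran from -0.14 to 0.09, with an SD over genes of 0.64 to 2.01, and the private and shared ratio had the same direction in 57.0% to 80% of genes. Where both were called, the directions were the same in all genes but 1, which was among 7 in W22 stem.

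The inbred parents were compared at the same sites, as maize against teosinte counts. These were scaled to each parent's reads over the sites listed for that cross and for both parents. The same maize parent libraries entered every cross of an inbred, so the SD is over teosinte parents only. In B73 the private minus shared log2 ratio of the parents was -0.18 ± 0.06 in ear (SD, n = 5 crosses), -0.14 ± 0.03 in leaf and -0.03 ± 0.08 in stem (n = 6 crosses), against -0.30, -0.29 and -0.18 in the F1s at the same crosses. These F1 values include the raised libraries. The ear value includes B73xTIL01 at -0.83, with the library that goes against its label. Single ear libraries of B73 with TIL09, TIL11, TIL14 and TIL25 lay between -0.22 and -0.11, around the parental value. In the other inbreds the parental value lay between -0.13 and 0.10. B73xTIL03 ear was left out because none of the 1010 private sites was listed for both parents in ear. Private sites were read in the maize parent less often than shared ones, 74.2% to 83.6% against 81.9% to 85.6%, and this difference in detection was not tested.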

How the data were processed

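The authors deposited counts of reads of the maize and of the teosinte allele per transcript and segregating site, for each library and lane of 448 samples. Per the study's methods, the authors aligned reads with Bowtie, without mismatches, to pseudo-transcriptomes built on AGPv2. The counts are raw.

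Each position of a gene was counted once, and lanes and replicates were summed per cross and tissue. CML103xTIL25, Mo17xTIL25 and the crosses of TIL05, TIL10 and TIL15 were not counted. The members and lists were chosen with earlier results of these data known. Tests were exact permutation tests over inbreds or crosses, and edgeR 4.0.16 quasi-likelihood tests (R 4.3.3), maize against teosinte allele with the cross as a block, equal library sizes for both alleles, a prior count of 0.125 and Benjamini-Hochberg adjustment over private, shared and other features. On counts simulated for Oh43 ear (3114 features), the edgeR fit recovered 165 of 200 altered genes (log2 ratio 1 in size) and made 6 false calls. The simulated counts were binomial, with the same set spread between crosses for every gene and unaltered genes centred on equal alleles. Oh43 has 5 counted crosses, so the rates do not describe inbreds with fewer crosses or genes that vary more between crosses. Replicates may be technical in part, and intervals cover counting error only, as reads carry no molecular identifiers.

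Named genes were, per inbred and direction among genes called in 3 tissues, that with the lowest maximum adjusted p and that with the largest ratio among genes with 10 reads of each allele, further the gene with the most private sites, and list members called in any tissue. RefSeq names (Zm-B73-REFERENCE-NAM-5.0) matched 4088 of 7265 genes with private sites (56.3%). Alternatives were DESeq2 1.42.0, TMM factors, filters, libraries as units, the replicate block, left-out replicates, leaving out each inbred or the cross B73xTIL01, 1 site per gene, every gene counted once, single-base sites, other definitions of shared sites, an exact binomial test and stricter thresholds. Those on parent-read sites, chromosome 10, replicates 3 and 4, the 3 raised libraries and the 2 Oh43 libraries were added after the data were seen. Python 3.11.15 with pandas 2.3.3 and scipy 1.17.1 was used.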

Additional observations from a re-analysis of the deposited data

Results flagged for a closer look

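Of 75 groups of crosses examined, 11 held a cross far from the others of its group, where chance alone gives about 1 in 20 such groups. In B73 ear, B73xTIL01 stood apart with a maize share of 32.9% at private sites and a private minus shared log2 ratio of -0.83. Its ear replicate 1 is the library described above as going against its label.

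Smaller gaps were found in Oh43 leaf, where Oh43xTIL09 had 51.9% at private sites, and in W22 stem, where W22xTIL01 had 47.4%. Among named genes, a single cross stood apart in GRMZM2G401934 (B73xTIL11 ear, 81.0%), GRMZM2G577706 (Ki3xTIL09 ear, 97.8%), GRMZM2G474798 (Ki3xTIL03 ear, 0.881%), GRMZM2G011355 (Oh43xTIL03 leaf, 95.3%), GRMZM5G801369 (Oh43xTIL01 leaf, 60%), GRMZM2G095408 (W22xTIL25 leaf, 90.5%) and GRMZM2G039671 (W22xTIL01 stem, 0.578%). In several of these the other crosses were all at 0% or 100%, so that 1 to 3 reads made the gap.

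Under the same contrast 7 of 45 exact permutation tests of crosses passed, all with B73, where the p measures the spread over teosinte parents only. The private minus shared log2 ratio of B73 differed from that of Oh43 by -0.25 in ear, -0.31 in leaf and -0.18 in stem, from that of Ki3 by -0.28 in leaf and -0.16 in stem, and from that of W22 by -0.27 in leaf and -0.10 in stem.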

How the results depend on the processing

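The private minus shared log2 ratio stayed below 0 in every tissue under all alternatives run, and passed the threshold in leaf (-0.056) and stem (-0.023) with every gene counted once and in ear (-0.095) and stem (-0.071) with sites shared through any cross. Leaving out replicates gave -0.10 to -0.05 in ear, -0.08 to -0.07 in leaf and -0.06 to -0.05 in stem. Ear minus leaf, near 0, turned positive with every gene counted once (0.010), without B73xTIL01 (0.015), with single-base sites (0.013), in genes with both kinds of site (0.039), without chromosome 10 (0.0029) and without the 3 raised libraries (0.013), and ran from -0.023 to 0.021 over left-out replicates. Ear minus stem turned to 0.010 in genes with both kinds of site. Genes called at private sites in ear, leaf and stem numbered 755, 562 and 708 with libraries as units, 1804, 1879 and 2010 by the exact binomial test, which takes no account of the spread between crosses, 173, 137 and 224 at sites read in the parents, and 150, 116 and 140 at an adjusted p below 0.005. DESeq2 called 404 in leaf. Over left-out replicates the counts ran from 196 to 289 in ear, 143 to 261 in leaf and 198 to 345 in stem. The share of all features called under these settings is not given, so the counts do not say whether private sites exceeded it there. The cause of these changes was not tested.

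Among named genes, GRMZM2G700014 of B73 changed sign in leaf with 1 site per gene (0.034) and in stem over left-out replicates (-0.013 to 0.27), GRMZM2G467799 of CML103 with 1 site per gene (0.17, 0.092 and 0.14 in ear, leaf and stem) and GRMZM2G031718 of Mo17 in stem with 1 site per gene (-0.42), none of them called. Of the values of named genes under alternatives, 807 kept their direction and side of the threshold, 21 lost a call and 8 gained one.

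With the replicate block, where libraries were units, 800, 441 and 636 genes were called at private sites in ear, leaf and stem. The share of all features called there is likewise not given. In this setting the stem call of pds1 in B73 was lost (edgeR adjusted p = 0.0657), while GRMZM2G700014 in B73 ear (0.0103) and GRMZM5G801369 in Oh43 stem (0.00787) gained one. Replicate numbers did not pair libraries of different crosses, with correlations from -0.30 to 0.49 (median 0.01) over 111 pairs, of which 8 were over 0.1. Depth limits single sites, as the median private site held 9.75 to 28.3 reads per cross, depending on inbred and tissue.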

Other observations

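Crosses that the rule did not count also list private sites. B73xTIL05 listed 877 of the 1010 private sites of B73, with 46.4%, 47.8% and 49.3% maize reads in ear, leaf and stem and 51.2%, 51.7% and 51.5% at shared sites. Oh43xTIL10 and Oh43xTIL15 had 49.97% to 51.3% at the private sites of Oh43 they list.

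CML103xTIL25 had 5.98% maize reads in leaf and 6.67% in stem at private sites of CML103, but 24.3% and 26.9% at shared sites. Mo17xTIL25 had 97.5% and 97.9% at private sites of Mo17 and 98.2% and 98.2% at shared sites. Both lie outside the range of 41.2% to 53.2% at private sites seen in the 148 libraries of other crosses.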
